A study of Mus musculus with 16 samples.

Results

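The cytochrome P450 genes of mouse lung are described here: all non-control probes of the array whose gene name is Cyp, a family number, a letter and a number, such as Cyp2f2. The array carried 87 such names on 112 probes, and 54 genes were kept because a probe of theirs was well above background on 4 or more arrays of 16. They were 54 of the 25602 genes tested. Where several probes of a gene were kept, which was so for 11 of the 54, the brightest stood for the gene.

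P450 enzymes are haem proteins that insert an oxygen atom into small lipophilic molecules, with electrons supplied by P450 oxidoreductase (Por) in the endoplasmic reticulum or by ferredoxin in mitochondria. Families with low numbers mostly metabolise foreign compounds and fatty acids, while several of the higher families make or degrade steroids, bile acids, vitamin D and retinoic acid. In lung, club cells of the airway epithelium are known for a high P450 content, and Cyp2f2 in these cells turns naphthalene into a toxic epoxide.

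RNA of whole homogenised lungs from female mice was measured on 16 single-colour arrays, 1 per sample. DT-treated ARF-DTR mice (4 samples, 12 months old), PBS-treated ARF-DTR mice (4 samples, 12 months) and uninjected ARF-DTR mice (4 samples, 2 months) carry the diphtheria toxin (DT) receptor under the Arf promoter of the Cdkn2a locus, which is active in senescent cells. DT-treated and PBS-treated wild type mice (2 samples each, 12 months) do not carry this transgene. DT at 50 microgram per kg or PBS was injected into the peritoneum every 2 weeks for 1 month. Whether the samples of a group are different mice is not stated in the labels, and the p-values cover only the spread among the samples, possibly technical. In whole lung, fewer cells of a type and less RNA per cell cannot be told apart.

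The 2-month and PBS-treated ARF-DTR samples filled slide 1, and the DT-treated ARF-DTR and both wild type groups filled slide 2. The 75th percentile of the signal was 665 ± 44.4 intensity units on slide 2 and 980 ± 74.4 on slide 1 (SD, n = 8 arrays each). Slide and DT therefore cannot be told apart where DT-treated and PBS-treated ARF-DTR lungs are compared, so comparisons within slide 2 are given for the P450 genes called there. The free descriptions conflict with the other labels of the wild type samples: that of PBS replicate 1 mentions DT and those of both DT samples do not. The title, source name and treatment field were followed, and every value of DT against PBS in wild type lungs, and of the difference in DT response, rests on that choice. All values are log2 signal minus the array's 75th percentile, called log2 levels here. Levels of different genes come from different probes and are not set against each other.

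Of the 54 genes, 46 were above background on all 16 arrays. Family 2, with mostly foreign-compound and fatty acid enzymes, gave 29 of its 44 named genes, and family 4, the fatty acid omega-hydroxylases, gave 10 of 15. Families 1 and 3 gave 2 of 3 and 3 of 7. From families 8 (Cyp8b1), 19 (Cyp19a1, aromatase) and 24 (Cyp24a1, which degrades vitamin D) no gene was kept. Cyp26a1, an enzyme that degrades retinoic acid, the liver enzyme Cyp1a2, and Cyp7a1, which starts bile acid synthesis, were above background on 0 arrays. Nearest to the limit from inside was Cyp3a57 (5 arrays), and from outside Cyp2c66, Cyp2d9 and Cyp4f14 (3 arrays each) and Cyp2a12, Cyp2c67, Cyp2g1 and Cyp4a32 (2 each). Of 9 listed hepatocyte markers, 4 were not kept either: Apoa1, Ttr, Serpina1b and Fgb. The other 5 were kept: Alb, Apoa2, Serpina1a, Ahsg and Tat. Their summed level, in units of the array's 75th percentile, was 5.01 to 5.57 in DT-treated, 6.53 to 8.21 in PBS-treated and 7.32 to 9.55 in 2-month ARF-DTR lungs. In wild type lungs, on slide 2, it was 6.45 and 6.97 with DT and 5.81 and 5.32 with PBS.

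By RefSeq accession, 50 of the 54 probes matched 1 current gene, which for Cyp2c44 is now called Cyp2c23. Another 3 probes are annotated to several genes. The probe used for Cyp2u1 matched no RefSeq gene, and much of it is a GT repeat. The probe named Cyp2a4 is annotated to transcripts of Cyp2a4 and Cyp2a5, and Cyp2a5 has no name of its own on this array, so its values cannot be split between them. The probe named Cyp3a11 is also annotated to Cyp3a41a, Cyp3a41b and Cyp3a44, and that of Cyp2j13 also to Cyp2j12. The Cyp2a4 probe (chr7:27099880-27099939, mm9, plus strand) is printed whole in capitals because all of it is annotated to both genes.
Cyp2a4: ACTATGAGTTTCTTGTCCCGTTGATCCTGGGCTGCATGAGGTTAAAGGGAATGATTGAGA

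**Figure D1:**
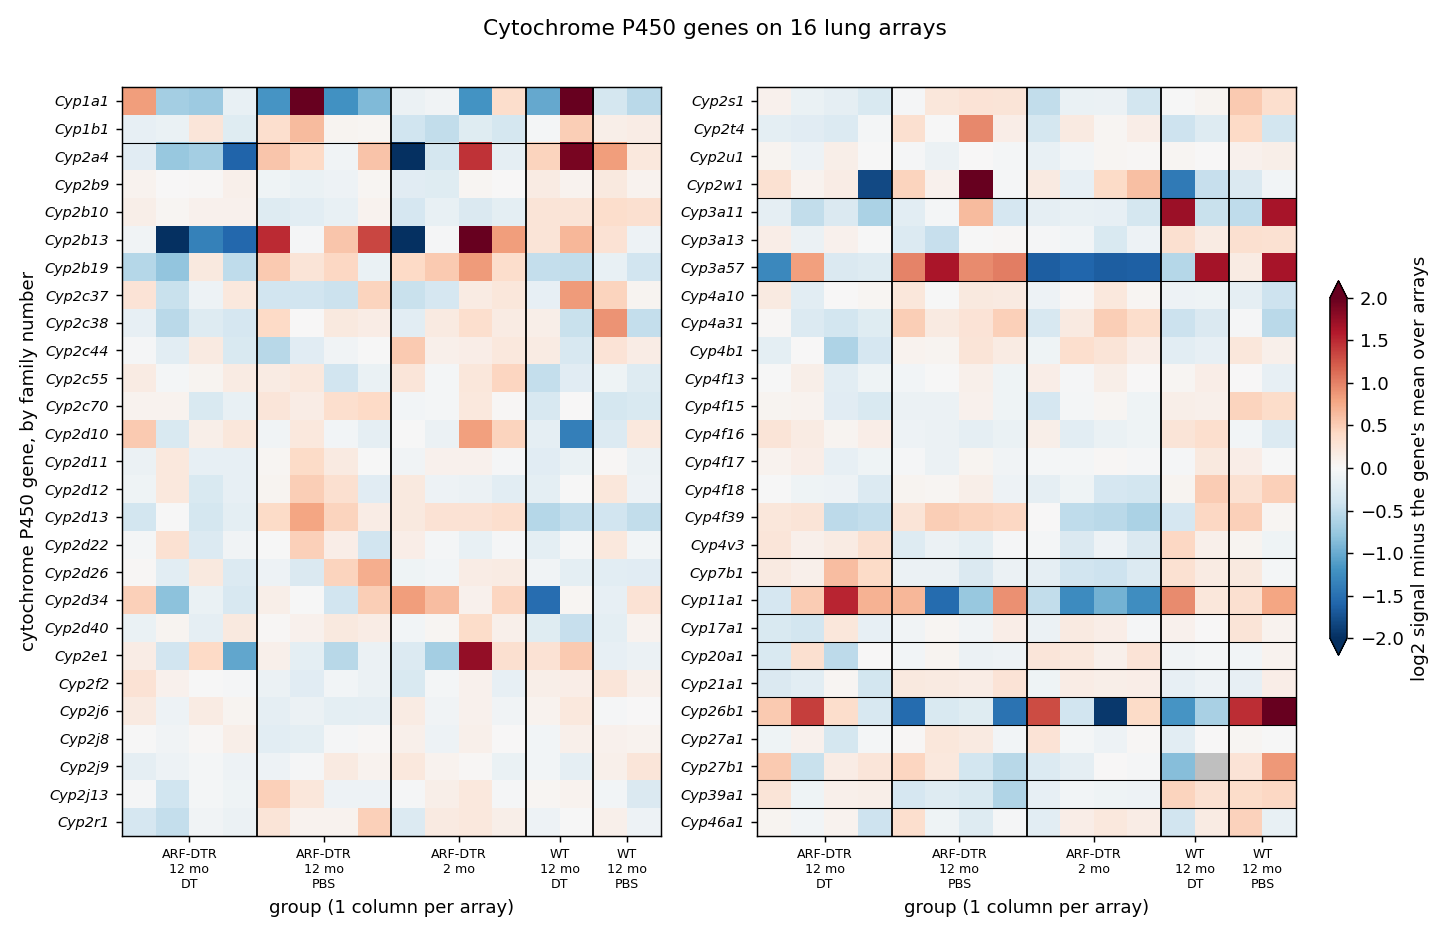
Colour map of 54 cytochrome P450 genes (rows, by family number and name) on 16 arrays (columns), as the log2 signal minus the mean of that gene over the arrays. Columns run from DT-treated, PBS-treated and 2-month ARF-DTR to DT-treated and PBS-treated wild type lungs, and the single grey cell is a missing value. Cyp1a1, Cyp2a4, Cyp2b13 and Cyp26b1 differ most between arrays of the same group, while most other rows are pale.

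Most P450 genes were steady between samples of a group. The within-group SD was below 0.2 for 29 of the 54 and above 0.5 for 10, with a median of 0.19 against 0.15 over all genes. Cyp2f2, the naphthalene-activating enzyme of club cells, averaged 8.08 ± 0.14 in DT-treated, 7.86 ± 0.07 in PBS-treated and 7.88 ± 0.17 in 2-month ARF-DTR lungs (SD, n = 4 each). Its log2 level in wild type lungs was 8.11 and 8.13 with DT and 8.23 and 8.10 with PBS. None of its 6 comparisons passed the threshold, the nearest being DT against PBS in ARF-DTR lungs (log2 change 0.22 ± 0.09, adjusted p = 0.0845). Scaling arrays to their median in place of the 75th percentile gave 0.40 (adjusted p = 0.00301), and quantile normalization gave a negative value, -0.16. All 9 club cell markers were measured, with summed levels of 1054 to 1324 in DT-treated, 884 to 1060 in PBS-treated and 747 to 1272 in 2-month ARF-DTR lungs. Wild type lungs, on slide 2, had sums of 1325 and 1328 with DT and 1421 and 1289 with PBS. The probe used for Cyp2u1, a fatty acid hydroxylase, spanned 5.79 to 6.06 over all 16 arrays. As it matched no RefSeq gene, this may not be the level of Cyp2u1. Another kept probe of that name gave a log2 change of -0.41 for DT against PBS in ARF-DTR lungs.

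Age was compared within slide 1, PBS-treated 12-month against 2-month ARF-DTR lungs, and 4 P450 genes were higher at 12 months with none lower. The 2-month mice were uninjected, so age and PBS injection cannot be told apart, here or wherever a change with age is given. The groups also lay in different rows of the slide. Called genes were those with an adjusted p under 0.05 in limma. The 4 of 54 are 7.41% of the members, against 6.13% of all genes called, with 2.73% higher and 3.41% lower. Among the 4, Cyp3a57 passed the detection limit only with the PBS-treated arrays counted, the group where it was higher. It is included in the counts of this paragraph. At an unadjusted p under 0.05 there were 9 members, against 20% of all genes. The median change was 0.05 over the P450 genes and -0.03 over all genes. The groups did not overlap for 8 members, against 13% of all genes. Family 1 gave 1 of its 2 members, family 2 gave 1 of 29, family 3 gave 1 of 3 and family 4 gave 1 of 10.

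Cyp1b1 oxidises polycyclic aromatic hydrocarbons and oestradiol and is a target of the aryl hydrocarbon receptor. Its probe lies at chr17:80106547-80106606 (mm9, minus strand). Its log2 levels were -0.02, 0.27, -0.31 and -0.33 in PBS-treated lungs, against -0.76, -0.85, -0.60 and -0.72 in 2-month lungs. Every PBS-treated 12-month sample was above every 2-month sample, and the level was 1.56-fold higher (log2 change 0.64 ± 0.15, adjusted p = 0.0245). The call was lost without PBS replicate 1 or 2 or 2-month replicate 1, 2 or 4, with an adjusted p of up to 0.0735. In the DT-treated ARF-DTR lungs of slide 2 the levels were -0.52, -0.49, -0.12 and -0.60.

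Cyp2s1 is a dioxin-inducible P450 of epithelial tissues, with its probe at chr7:26587495-26587554 (mm9, minus strand). Its log2 levels were 5.24, 5.48, 5.54 and 5.52 in PBS-treated 12-month lungs, against 4.77, 5.12, 5.14 and 4.89 in 2-month lungs. The groups did not overlap, and the 12-month level was 1.37-fold higher (log2 change 0.46 ± 0.11, adjusted p = 0.0228). Without PBS replicate 3 or 4 or 2-month replicate 1 or 4 the adjusted p was 0.0654 to 0.0670, and a fit on the compared groups alone gave 0.0615.

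Cyp4f39 is the mouse counterpart of human CYP4F22, which hydroxylates very long fatty acids for skin ceramides. Its probe lies at chr17:32629616-32629675 (mm9, plus strand). It measured -2.37, -2.13, -2.18 and -2.21 (log2) in PBS-treated 12-month lungs, against -2.61, -3.13, -3.16 and -3.24 in 2-month lungs. The groups were apart, with 2-month replicate 1 nearest to the older lungs, and the level was 1.76-fold higher (log2 change 0.82 ± 0.22, adjusted p = 0.0451). This call was lost without any of 7 of the 8 arrays, all but 2-month replicate 1 (adjusted p 0.0748 to 0.116), and under 4 of 9 other settings (0.0542 to 0.0689).

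Cyp3a57 was close to background. It was above background in 2 of 4 PBS-treated samples and in none of the 2-month samples, where it has only an upper bound. The measured log2 levels were -5.47, -4.83, -5.51 and -5.44 in PBS-treated 12-month lungs, against -8.11, -8.05, -8.11 and -8.10 in 2-month lungs. It passed the limit of 4 arrays only with the PBS-treated arrays counted. The difference was at least 1.40-fold, higher at 12 months, with the dim side raised to the lowest signal that was well above background on each array. This bound uses the mean of all 4 PBS-treated samples, of which 2 were not well above background themselves. The adjusted p of 0.00534 in limma belongs to the fitted log2 change of 2.78, which rests on the 2-month values below background.

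Of the genes described whatever their values, most did not pass with age. Cyp2b10, a phenobarbital-inducible enzyme, had a log2 change of 0.11 ± 0.07, and Cyp4b1, a lung enzyme that activates the plant toxin ipomeanol in rabbits, of -0.03 ± 0.12. Cyp7b1, the oxysterol 7-alpha-hydroxylase, had 0.15 ± 0.11, and Cyp27a1, the mitochondrial sterol 27-hydroxylase, had 0.06 ± 0.11 (adjusted p of these 4 between 0.444 and 0.934). Named after their values were seen, Cyp39a1 (-0.27 ± 0.09, adjusted p = 0.0791) and Cyp2c44 (-0.46 ± 0.15, adjusted p = 0.100) were nearest to being called lower, both with groups that did not overlap.

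**Figure D2:**
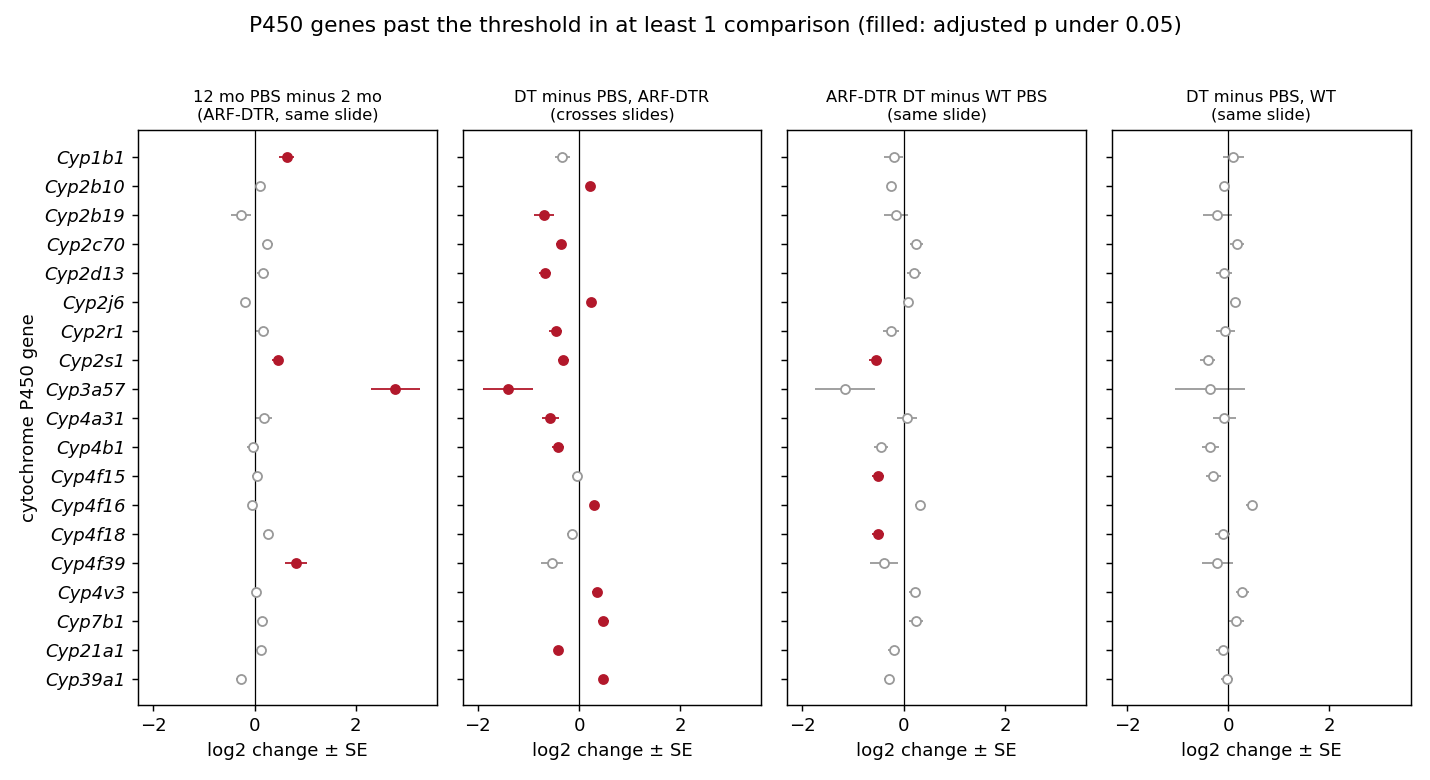
Log2 changes (points) with standard errors (bars) of the 19 P450 genes called in at least 1 of the 4 comparisons shown, filled where the adjusted p was under 0.05. With age (left) the 4 filled points all lie to the right of 0, from 0.46 to 2.78 as fitted, while in DT-treated against PBS-treated ARF-DTR lungs 6 lie to the right and 9 to the left. In wild type lungs (right) no point is filled.

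The aryl hydrocarbon receptor binds DNA that holds the core GCGTG. In the RefSeq windows of 300 bases, 250 before and 50 after a gene's start (GRCm38.p6), GCGTG or its complement CACGC stood in 13 of the 43 windows found for 41 members. That is 30.2%, against 32.4% of all 32851 windows. The windows of Cyp1a1, the best known target of that receptor, and of the 3 well-measured members higher with age are shown because Cyp1a1 and Cyp1b1 were high on the same arrays. They are chr9:57697363-57697662 (plus strand) for Cyp1a1, chr17:79715012-79715311 (minus) for Cyp1b1, chr17:32452473-32452772 (plus) for Cyp4f39 and chr7:25816476-25816775 (minus) for Cyp2s1. Capitals mark each match on either strand, of which there were 1, 1, 2 and 0 in this order. A match is a string of letters in the window and not a measured binding site.
Cyp1a1: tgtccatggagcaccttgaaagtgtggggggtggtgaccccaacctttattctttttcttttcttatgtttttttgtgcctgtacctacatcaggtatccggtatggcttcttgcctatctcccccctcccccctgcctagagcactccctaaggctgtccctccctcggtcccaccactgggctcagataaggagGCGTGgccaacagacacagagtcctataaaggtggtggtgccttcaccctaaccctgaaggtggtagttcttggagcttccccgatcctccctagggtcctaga
Cyp1b1: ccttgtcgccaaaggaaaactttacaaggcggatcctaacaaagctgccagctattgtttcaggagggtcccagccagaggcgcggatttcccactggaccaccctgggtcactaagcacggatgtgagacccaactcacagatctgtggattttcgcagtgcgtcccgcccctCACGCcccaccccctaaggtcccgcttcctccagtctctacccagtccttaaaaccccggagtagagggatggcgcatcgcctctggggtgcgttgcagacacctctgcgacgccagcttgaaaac
Cyp4f39: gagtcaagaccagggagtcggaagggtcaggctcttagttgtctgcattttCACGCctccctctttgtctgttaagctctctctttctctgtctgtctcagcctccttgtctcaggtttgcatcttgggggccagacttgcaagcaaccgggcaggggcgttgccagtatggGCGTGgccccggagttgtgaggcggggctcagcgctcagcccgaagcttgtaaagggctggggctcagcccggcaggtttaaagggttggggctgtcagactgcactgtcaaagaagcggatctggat
Cyp2s1: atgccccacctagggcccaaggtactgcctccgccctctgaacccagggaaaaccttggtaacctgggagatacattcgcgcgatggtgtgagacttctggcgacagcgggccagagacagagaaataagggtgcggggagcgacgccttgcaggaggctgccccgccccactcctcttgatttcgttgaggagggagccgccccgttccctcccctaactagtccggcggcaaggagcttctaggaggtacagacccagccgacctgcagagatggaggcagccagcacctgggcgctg

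Cyp1a1, which hydroxylates polycyclic aromatic hydrocarbons and is induced by smoke and dioxins, had the widest within-group spread of all members. Its log2 levels were -1.95, 3.69, -1.97 and -1.64 in PBS-treated ARF-DTR lungs, replicate 2 standing 31.8-fold above the median of the other 15 arrays. They were 0.08, -1.44, -1.48 and -0.91 in DT-treated and -0.88, -0.83, -1.96 and -0.40 in 2-month ARF-DTR lungs. In wild type lungs they were -1.78 and 1.73 with DT, against -1.12 and -1.30 with PBS. PBS replicate 2 and wild type DT replicate 2 were thus the highest arrays. The same 2 arrays were the highest for Nqo1, a quinone reductase that the same receptor can induce, at 0.21 and 0.39, with -1.96 to -0.96 on the other arrays. Cyp1b1 was also highest on these arrays, at 0.27 and 0.13. Tiparp, from the list of xenobiotic receptors and their partners, was not. It had 1.89 and 2.00 there, against 2.02 in PBS replicate 4 and 2.12 in wild type DT replicate 1. Ahrr, from the same list, had -4.59 and -4.64 there, against -4.63 in DT-treated ARF-DTR replicate 2. Whether the receptor was active on these arrays was not tested. The age difference of Cyp1a1 was 0.55 ± 1.11 and became -0.83 without PBS replicate 2, and DT against PBS in ARF-DTR lungs was -0.47 ± 1.11 and became 0.91, neither called.

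**Figure D3:**
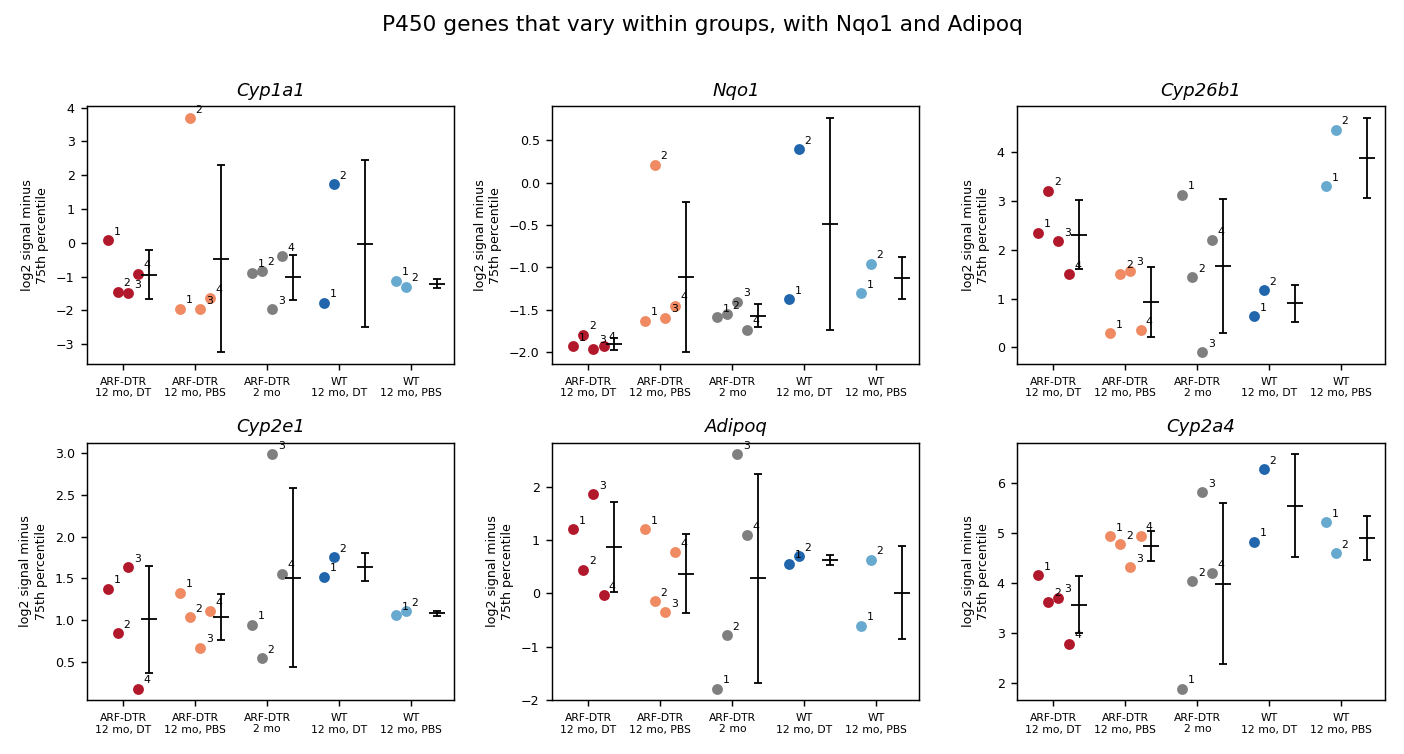
Log2 levels of 4 P450 genes that vary within groups, with Nqo1 and the adipocyte gene Adipoq, on each array (points with their replicate number) and as the mean ± SD of the group (black). Groups run from DT-treated, PBS-treated and 2-month ARF-DTR to DT-treated and PBS-treated wild type lungs. Cyp1a1 and Nqo1 are both highest in PBS-treated ARF-DTR replicate 2 and wild type DT replicate 2, and Cyp2e1 and Adipoq are both highest in 2-month replicate 3.

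Cyp2e1, which oxidises ethanol and small solvents, measured 1.38, 0.84, 1.63 and 0.18 in DT-treated, 1.33, 1.04, 0.67 and 1.11 in PBS-treated and 0.95, 0.55, 2.99 and 1.56 in 2-month ARF-DTR lungs. Wild type lungs had 1.52 and 1.75 with DT, against 1.06 and 1.11 with PBS. The single high array was 2-month replicate 3, and no comparison of Cyp2e1 was called. Adipoq, the adipocyte hormone adiponectin, was highest on that array too, at 2.61, with -1.79, -0.79 and 1.09 in the other 2-month samples. Of 7 adipocyte markers 6 were measured (Lep was not), with a summed level of 10.3 to 107 in 2-month lungs, 13.2 to 52.9 in DT-treated and 15.4 to 45.8 in PBS-treated lungs. The part of such tissue in the Cyp2e1 values was not tested.

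The Cyp2a4 and Cyp2a5 probe, for a testosterone hydroxylase and the coumarin hydroxylase, ranged over 4.39 log2 units. It gave 4.14, 3.62, 3.70 and 2.78 in DT-treated, 4.93, 4.77, 4.31 and 4.94 in PBS-treated and 1.88, 4.03, 5.81 and 4.19 in 2-month ARF-DTR lungs. Wild type lungs had 4.82 and 6.27 with DT and 5.21 and 4.59 with PBS. Every DT-treated ARF-DTR sample lay below every PBS-treated ARF-DTR and wild type sample, but no comparison was called (against PBS-treated ARF-DTR -1.18 ± 0.63, adjusted p = 0.176, and against DT-treated wild type -1.98 ± 0.77, adjusted p = 0.233). Cyp2b13, a female-specific liver enzyme, had -2.99, -4.94, -4.27 and -4.48 in DT-treated lungs, against -1.42, -2.94, -2.36 and -1.58 in PBS-treated lungs (-2.09 ± 0.83, adjusted p = 0.0728). In 2-month lungs it had -5.63, -2.94, -0.48 and -2.08, lowest in replicate 1 and highest in replicate 3 like the Cyp2a4 and Cyp2a5 probe. Heart muscle markers, all 5 measured, had summed levels of 49.2 to 76.5 in DT-treated, 96.7 to 180 in PBS-treated and 25.8 to 219 in 2-month ARF-DTR lungs, lowest and highest on the same 2-month arrays. Club cell, ciliated cell, smooth muscle and adipocyte sums were also lowest in 2-month replicate 1 and highest in replicate 3. In wild type lungs the heart sums were 73.0 and 103 with DT and 52.8 and 70.9 with PBS. The part of such tissue in these values was not tested. Cyp2b13 was chosen here after its values were seen.

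DT-treated against PBS-treated 12-month ARF-DTR lungs, which crosses the slides, gave 6 P450 genes higher and 9 lower. These 15 are 27.8% of the members, against 29.3% of all genes called, with 15.8% higher and 13.5% lower. Among the 9 lower, Cyp3a57 passed the detection limit only with the PBS-treated arrays counted, where it was higher. At an unadjusted p under 0.05 there were 21, against 41.1% of all genes. The median change was -0.14 over the P450 genes and 0.00 over all genes, and groups did not overlap for 17 members, against 30.5% of all genes. Scaled to the array median, where the median of all genes moved to 0.18, the split was 11 higher and 2 lower, and after normexp background correction it was 11 higher and 5 lower. By family, 2 rose and 5 fell in family 2, 2 rose and 2 fell in family 4, and 1 of 3 fell in family 3. Single members of families 7 and 39 rose and that of family 21 fell.

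**Figure D4:**
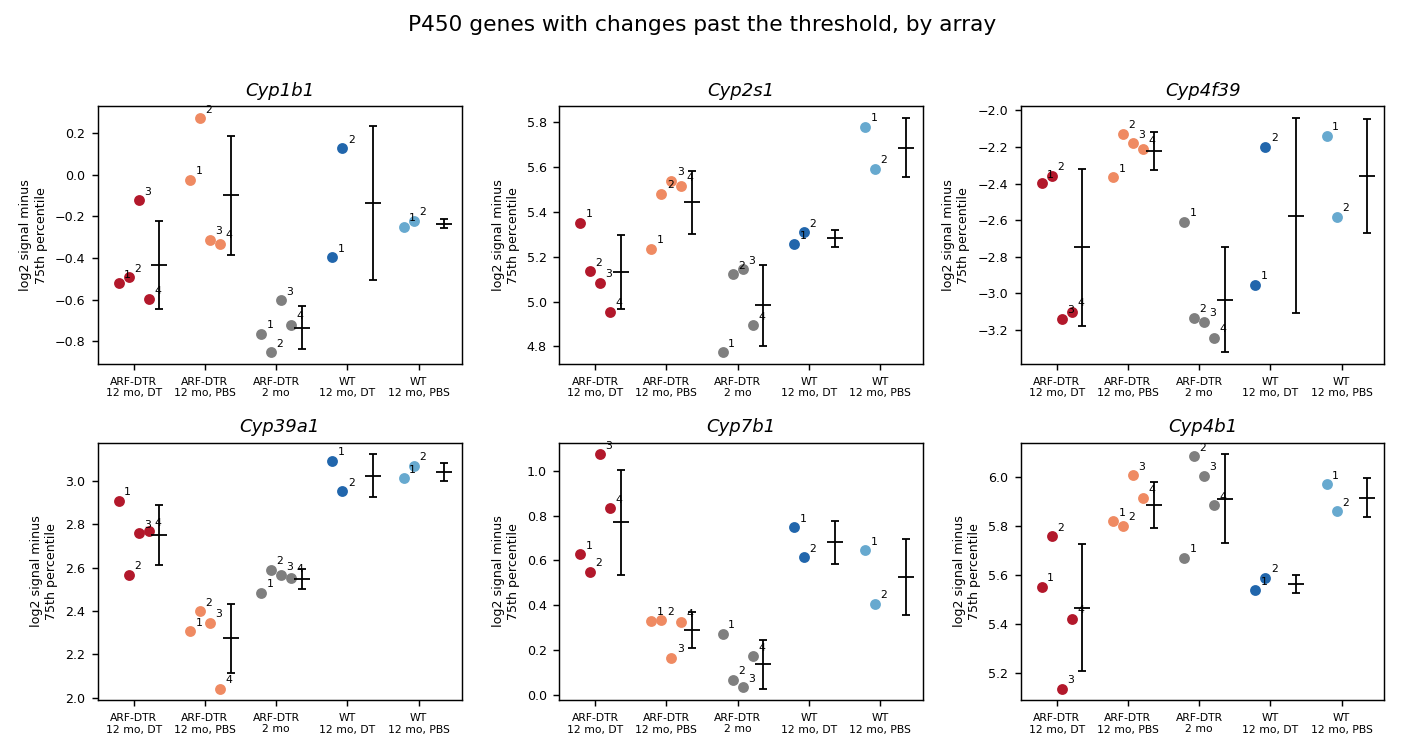
Log2 levels of 6 P450 genes called in at least 1 comparison, on each array (points with their replicate number) and as the mean ± SD of the group (black). Groups run from DT-treated, PBS-treated and 2-month ARF-DTR to DT-treated and PBS-treated wild type lungs. Cyp1b1, Cyp2s1 and Cyp4f39 are higher in PBS-treated 12-month than in 2-month ARF-DTR lungs, and the DT-treated ARF-DTR points of Cyp39a1 lie above the PBS-treated ones and below the wild type ones.

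Among the 6 called rises, those of the sterol enzymes Cyp39a1 and Cyp7b1 were the largest. Cyp39a1 adds a hydroxyl group to 24-hydroxycholesterol on the way to bile acids, and its probe lies at chr17:43887735-43887794 (mm9, plus strand). Its log2 levels were 2.91, 2.57, 2.76 and 2.77 in DT-treated lungs, against 2.31, 2.40, 2.35 and 2.04 in PBS-treated lungs. The groups did not overlap, and the level was 1.39-fold higher with DT (log2 change 0.48 ± 0.09, adjusted p = 0.00182). On slide 2 the DT-treated ARF-DTR lungs were not higher than wild type, which had 3.09 and 2.95 with DT and 3.01 and 3.07 with PBS. Against wild type PBS the change was -0.29 ± 0.10 (adjusted p = 0.121), and within wild type DT gave -0.02 ± 0.12.

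Cyp7b1 (chr3:17972286-17972345, mm9, minus strand) inactivates 25- and 27-hydroxycholesterol. Its log2 levels were 0.63, 0.55, 1.07 and 0.83 in DT-treated lungs, against 0.33, 0.33, 0.17 and 0.33 in PBS-treated lungs, without overlap. The level was 1.40-fold higher (log2 change 0.48 ± 0.11, adjusted p = 0.00557). Wild type lungs had 0.75 and 0.61 with DT and 0.65 and 0.41 with PBS, so DT-treated ARF-DTR and wild type values overlapped. Every array of slide 2, wild type PBS included, lay above every array of slide 1. Against wild type PBS the change was 0.24 ± 0.13 (adjusted p = 0.294).

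Among fatty acid enzymes, Cyp4v3, the mouse counterpart of the human retinal dystrophy gene CYP4V2, and Cyp4f16 rose with DT in ARF-DTR lungs. Cyp4v3 had 2.92, 2.77, 2.84 and 3.00 with DT, against 2.43, 2.56, 2.49 and 2.66 with PBS (log2 change 0.35 ± 0.09, adjusted p = 0.0124). Cyp4f16 had 0.11, 0.01, -0.10 and -0.02 with DT, against -0.25, -0.27, -0.33 and -0.29 with PBS (log2 change 0.29 ± 0.07, adjusted p = 0.0126). Both were also higher with DT in wild type lungs, where all arrays share slide 2, without passing the threshold. For Cyp4f16 those levels were 0.11 and 0.18 with DT, against -0.21 and -0.43 with PBS (log2 change 0.46 ± 0.11, adjusted p = 0.102), the smallest adjusted p of any member in wild type. For Cyp4v3 they were 3.10 and 2.78 with DT, against 2.74 and 2.59 with PBS (0.27 ± 0.13, adjusted p = 0.395). Against wild type PBS, DT-treated ARF-DTR lungs were at 0.32 ± 0.09 for Cyp4f16 (adjusted p = 0.0579) and 0.22 ± 0.11 for Cyp4v3 (adjusted p = 0.270).

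Cyp2j6, an arachidonic acid epoxygenase, and Cyp2b10 rose by smaller amounts with DT in ARF-DTR lungs, with log2 changes of 0.24 ± 0.07 (adjusted p = 0.0262) and 0.22 ± 0.07 (adjusted p = 0.0341). Another probe of Cyp2j6 gave 0.08, and against wild type PBS its change was 0.08 ± 0.09 (adjusted p = 0.659). The Cyp2j6 call was lost without PBS replicate 1 or 3 or DT replicate 1, 3 or 4 (adjusted p 0.0514 to 0.0757) and with the mean of its kept probes (0.204). Cyp2b10 had 6.84, 6.77, 6.81 and 6.81 with DT, against 6.46, 6.52, 6.58 and 6.80 with PBS, and the groups overlapped only through PBS replicate 4. Its change turned to -0.063 under quantile normalization and was -0.25 ± 0.09 against wild type PBS (adjusted p = 0.105). Its call was lost without any of 6 of the 8 arrays (adjusted p 0.0676 to 0.0974), PBS replicate 4 and DT replicate 2 excepted.

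Of the 9 that fell, Cyp2d13 had the smallest adjusted p. Its levels were -3.52, -3.16, -3.51 and -3.35 with DT, against -2.78, -2.37, -2.71 and -3.00 with PBS (log2 change -0.67 ± 0.12, adjusted p = 0.00149). The wild type arrays of slide 2 were at -3.72 and -3.64 with DT and -3.54 and -3.64 with PBS, so all 8 arrays of slide 2 lay below all 8 of slide 1. Against wild type PBS the change was 0.21 ± 0.14 (adjusted p = 0.422). Cyp2c70, which makes muricholic acids in mouse liver, likewise had -0.36 ± 0.10 across slides (adjusted p = 0.0179) and 0.25 ± 0.12 against wild type PBS (adjusted p = 0.258). The Cyp2c70 call was lost without DT replicate 3 or 4 (adjusted p 0.0507 to 0.0561) and under 3 other settings.

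Cyp4b1 was lower with DT in every comparison of DT with PBS samples, though called only across slides. Its probe lies at chr4:115297406-115297465 (mm9, minus strand), and its levels were 5.55, 5.76, 5.14 and 5.42 in DT-treated ARF-DTR lungs, against 5.82, 5.80, 6.01 and 5.91 in PBS-treated ARF-DTR lungs. The groups did not overlap, and the level was 1.34-fold lower (log2 change -0.42 ± 0.12, adjusted p = 0.0199). Within slide 2 the wild type levels were 5.54 and 5.59 with DT, against 5.97 and 5.86 with PBS (-0.35 ± 0.17, adjusted p = 0.414). DT-treated ARF-DTR against wild type PBS lungs gave -0.45 ± 0.15 (adjusted p = 0.0915). The call across slides was lost without PBS replicate 3 or DT replicate 3 or 4 (adjusted p 0.0517 to 0.0571) and under scaling to the array median (0.106).

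The remaining falls across slides were in Cyp21a1, the steroid 21-hydroxylase (-0.41 ± 0.09, adjusted p = 0.00586), in Cyp2r1, which makes 25-hydroxyvitamin D (-0.46 ± 0.13, adjusted p = 0.0184), and in Cyp2b19, an epoxygenase of skin keratinocytes (-0.69 ± 0.20, adjusted p = 0.0203). Cyp4a31, Cyp2s1 and Cyp3a57 fell too, with log2 changes of -0.57 ± 0.17 (adjusted p = 0.0217), -0.31 ± 0.11 (adjusted p = 0.0424) and -1.40 ± 0.49 (adjusted p = 0.0448). Another kept probe of Cyp2r1 gave 0.17 and one of Cyp4a31 gave 0.11. The Cyp2s1 call was lost without PBS or DT replicate 2, 3 or 4 (adjusted p 0.0659 to 0.125) and under 4 other settings, the replicate block included. The Cyp3a57 call was lost without any array but DT replicate 2 (0.0687 to 0.125) and under 4 other settings. The Cyp4a31 call was lost without PBS replicate 1 or 4 or DT replicate 3 or 4 (0.0514 to 0.062) and under 2 other settings. That of Cyp2b19 was lost without PBS replicate 1 or 3 or DT replicate 1, 2 or 4 (0.0515 to 0.0581) and under 4 other settings. Cyp2r1 lost its call without PBS replicate 4 (0.0514) and under 2 other settings, and Cyp21a1 with scaling to the array median (0.0523). Cyp2b19 and Cyp3a57 were above background on only 1 DT-treated and 2 PBS-treated arrays each, and normexp background correction gave 0.23 and 0.071 for them. Relative to wild type PBS, Cyp21a1 had -0.19 ± 0.11 (adjusted p = 0.343), Cyp2r1 -0.25 ± 0.16 (adjusted p = 0.387) and Cyp4a31 0.07 ± 0.20 (adjusted p = 0.885). Cyp2b19 had -0.15 ± 0.24 there (adjusted p = 0.762) and Cyp3a57 had -1.16 ± 0.59 (adjusted p = 0.273), with Cyp2b19 above background on 0 and Cyp3a57 on 1 of the 2 wild type PBS arrays. Cyp4a31 has a close relative in Cyp4a10, a fatty acid omega-hydroxylase, which had -0.15 ± 0.09 (adjusted p = 0.253). Their probes share a run of 34 of 60 bases, in capitals, and how far signal of each reaches the other was not tested. They lie at chr4:115251553-115251612 and chr4:115206200-115206259 (mm9).
Cyp4a31: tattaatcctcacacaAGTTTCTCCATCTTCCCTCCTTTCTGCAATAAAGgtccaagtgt
Cyp4a10: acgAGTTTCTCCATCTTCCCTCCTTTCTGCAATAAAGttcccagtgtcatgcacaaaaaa

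In the same comparison, 10 of 11 alveolar type 2 cell markers were higher, with summed levels of 1852 to 2167 in DT-treated lungs and 1329 to 1484 in PBS-treated lungs. Wild type lungs, on slide 2, had 2016 and 1721 with DT and 1894 and 1648 with PBS, so those without DT also lay above every PBS-treated ARF-DTR array. Of 8 alveolar macrophage markers 6 were higher (332 to 461 in DT-treated, against 191 to 333 in PBS-treated lungs), and of 7 smooth muscle markers 5 were lower (75.3 to 89.5 in DT-treated, against 114 to 145 in PBS-treated lungs). In wild type lungs macrophage sums were 502 and 346 with DT and 260 and 242 with PBS, and smooth muscle sums were 98.4 and 93 with DT and 124 and 130 with PBS. Club cell markers gave 2 higher and 2 lower of 9. Of all genes, 15.8% were higher and 13.5% lower between these ARF-DTR groups. The part of cell makeup in the P450 values was not tested.

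DT-treated ARF-DTR against wild type PBS lungs lay within slide 2 but differed in genotype as well as treatment, and 3 P450 genes were lower with none higher. That is 5.56% of the members, against 5.49% of all genes called, with 2.12% higher and 3.37% lower. At an unadjusted p under 0.05 there were 11, against 22.2% of all genes. The median change was -0.15 over the P450 genes and 0.00 over all genes. Cyp2s1 had 5.35, 5.13, 5.08 and 4.95 in DT-treated ARF-DTR lungs, against 5.78 and 5.59 in wild type PBS lungs (log2 change -0.56 ± 0.13, adjusted p = 0.0293). Its wild type DT levels, 5.26 and 5.31, also lay below wild type PBS, without passing (-0.40 ± 0.15, adjusted p = 0.273).

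The other 2 lower genes belong to the Cyp4f subfamily, which includes enzymes that hydroxylate leukotriene B4, a lipid that attracts neutrophils. Its other kept members were not called, with Cyp4f13 and Cyp4f16 higher and Cyp4f17 and Cyp4f39 lower on average. Cyp4f15 had 0.02, 0.03, -0.26 and -0.34 in DT-treated ARF-DTR lungs, against 0.40 and 0.33 in wild type PBS lungs (log2 change -0.50 ± 0.12, adjusted p = 0.0333). Cyp4f18, the form of mouse neutrophils, had 3.08, 3.01, 2.99 and 2.82 in DT-treated ARF-DTR lungs, against 3.39 and 3.57 in wild type PBS lungs (-0.51 ± 0.13, adjusted p = 0.0358), and another of its probes gave -0.57. In wild type DT lungs Cyp4f15 was at 0.08 and 0.06 and Cyp4f18 at 3.14 and 3.59. All 3 calls were lost without ARF-DTR DT replicate 3 or 4 or either wild type PBS sample (adjusted p 0.0521 to 0.235, with Cyp4f18 also lost without DT replicate 2), and in a fit on the compared groups alone. Ciliated cell markers were lower in the same comparison for 5 of 8 measured, with summed levels of 69.5 to 94.0 in DT-treated ARF-DTR and 111 to 121 in wild type PBS lungs. Their part in these values was not tested.

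DT against PBS within wild type lungs called 0 P450 genes in limma, with 5 at an unadjusted p under 0.05, against 0.18% of all genes called (0.0547% higher, 0.125% lower) and 12.7% at the unadjusted limit. DT-treated ARF-DTR against DT-treated wild type lungs called 0 of 54, with 7 at the unadjusted limit, against 0.891% (0.59% higher, 0.301% lower) and 15.6% of all genes. The DT response of ARF-DTR minus that of wild type lungs called 0 of 54, with 7 at the unadjusted limit, against 2.11% (0.851% higher, 1.25% lower) and 21.3% of all genes. These 3 comparisons share arrays with those above.

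Cyp26b1, which degrades retinoic acid and was the only kept member of its family (chr6:84521952-84522011, mm9, minus strand), came nearest to a difference in DT response. Its log2 levels were 2.35, 3.21, 2.18 and 1.5 in DT-treated ARF-DTR lungs, against 0.29, 1.52, 1.58 and 0.35 in PBS-treated ARF-DTR lungs. In wild type lungs they were 0.64 and 1.17 with DT, against 3.30 and 4.46 with PBS. DT-treated samples were thus mostly above PBS-treated ones in ARF-DTR lungs and below them in wild type lungs, and 2-month lungs spread from -0.10 to 3.13. The DT change was 1.38 ± 0.60 in ARF-DTR (adjusted p = 0.102) and -2.97 ± 0.85 in wild type lungs (adjusted p = 0.169). The difference of these changes was 4.35 ± 1.04 (adjusted p = 0.0503), just outside the threshold, and it passed under 4 alternatives (adjusted p 0.0257 to 0.0477). The ARF-DTR side of this difference crosses slides.

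Of 17 genes of retinoid metabolism and signalling, 2 passed for the same difference in DT response, against 2.11% of all genes. Both are known to be induced by retinoic acid, and its part in these values was not tested. Rarb, a retinoic acid receptor, differed by 0.61 ± 0.13 (adjusted p = 0.0373). It had 0.83, 0.87, 0.81 and 0.93 in DT-treated and 0.48, 0.56, 0.70 and 0.75 in PBS-treated ARF-DTR lungs. The wild type levels were 0.52 and 0.67 with DT, against 0.93 and 1 with PBS. Dhrs3, which turns retinal back into retinol, differed by 0.58 ± 0.13 (adjusted p = 0.0359). The median difference over the 17 genes was 0.09, against 0.04 over all genes.

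Cyp27b1, which activates vitamin D, had 1 usable value in wild type DT samples, -5.97, which was not well above background, so no difference is given for it there. It is still among the 5 and the 7 genes at the unadjusted limit for DT in wild type lungs and for the difference in DT response, through that value. Its wild type PBS levels were -4.83 and -4.24. The ARF-DTR levels were -4.58, -5.56, -4.97 and -4.87 with DT, against -4.69, -4.90, -5.48 and -5.66 with PBS. Cyp3a11, a drug-metabolising enzyme of liver, stood at -1.96 in wild type DT replicate 1 and -2.02 in wild type PBS replicate 2, with -4.31 to -3.05 on the other arrays. Both genes were chosen after their values were seen.

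The genes that serve P450 enzymes were examined by list. Of all genes, 2.73% were higher and 3.41% lower with age, and 15.8% and 13.5% across slides. Against wild type PBS the shares were 2.12% and 3.37%. Of 10 measured redox partners, Por was lower with age (-0.33 ± 0.09, adjusted p = 0.0492), in DT-treated against PBS-treated ARF-DTR lungs (-0.36 ± 0.09, adjusted p = 0.0121) and in DT-treated ARF-DTR against wild type PBS lungs (-0.49 ± 0.11, adjusted p = 0.0277). The first and second of these share the PBS samples. The ferredoxins Fdx1 and Fdx1l were higher across slides, by 0.20 ± 0.05 and 0.35 ± 0.06, and had 0.07 ± 0.06 (adjusted p = 0.567) and -0.0032 ± 0.08 (adjusted p = 0.988) against wild type PBS. Of 14 genes of haem synthesis and degradation, 0 were called with age and 4 were higher across slides, among them the haem oxygenases Hmox1 (0.89 ± 0.18) and Hmox2 (0.36 ± 0.08). Within slide 2, against wild type PBS, these were at -0.07 ± 0.21 (adjusted p = 0.888) and 0.02 ± 0.10 (adjusted p = 0.943). Alas1, the rate-limiting enzyme of haem synthesis in most tissues, was lower in DT-treated ARF-DTR than in DT-treated wild type lungs (-0.51 ± 0.10, adjusted p = 0.0420).

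Of 16 genes of xenobiotic receptors and their partners, 1 was higher and 1 lower with age, 4 higher and 2 lower across slides, and 2 lower against wild type PBS. The last 2 were Nr1i2, the pregnane X receptor (-1.65 ± 0.28, adjusted p = 0.00892), and Ahr, the aryl hydrocarbon receptor (-0.63 ± 0.15, adjusted p = 0.0296). Of 16 clock and PAR bZIP factors, which control rhythmic P450 genes in liver, 4 were higher and 8 lower with age, led by Dbp (-2.86 ± 0.21) and Arntl (1.77 ± 0.15). In DT-treated ARF-DTR against DT-treated wild type lungs 4 were higher and 5 lower, and the labels give no time of day of sampling.

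Flavin monooxygenases and epoxide hydrolases gave 0 higher and 1 lower of 9 with age, 1 higher and 2 lower across slides and 2 lower against wild type PBS. Fmo1, which oxygenates amines and sulphides, was lower in all 3 (-0.33 ± 0.09, -0.48 ± 0.09 and -0.49 ± 0.11). Of 24 measured conjugating enzymes 1 was higher with age, the glutathione transferase Gsta3 (0.50 ± 0.12), 4 were higher and 1 lower across slides, and 2 were lower against wild type PBS. Eicosanoid synthesis genes gave 0 of 17 with age and 3 higher across slides, Hpgds (0.66 ± 0.22), Tbxas1 (0.62 ± 0.16) and Ptgs1 (0.51 ± 0.10). Set against wild type PBS, these had 0.46 ± 0.27, 0.33 ± 0.20 and 0.24 ± 0.12 (adjusted p 0.268 to 0.356).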

How the data were processed

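Per the labels' protocols, RNA of homogenised lungs was labelled with Cy3. Per the submitters' processing notes, arrays were read with Agilent Feature Extraction 10.10.1.1. The deposited intensity values are the background-subtracted and detrended signal of each spot in 1 channel, with flags for brightness and outliers, not scaled between arrays, per the file headers, and the probe design is on mm9. The authors' series table holds log2 values, which matched the log2 signal minus the array's 75th percentile (median absolute difference at most 0.0105) and served as an alternative. No further step of the authors is stated in the labels.

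Control and outlier-flagged spots were left out and spots of a probe averaged. The log2 signal minus the array's 75th percentile was used, with probes well above background on 4 or more of 16 arrays (37043 of 55681), and the brightest kept probe per gene name. The 75th percentile was 613 to 1088 intensity units, and 55.6% to 66.9% of probes were well above background, which with the number of arrays limits the precision. limma 3.58.1 in R 4.3.3 (jsonlite 2.0.0 and the package data.table, version 1.17.8) fitted 1 mean per group to all 16 arrays, with two-sided moderated tests and Benjamini-Hochberg adjustment over 25602 genes at 0.05. A ± after a log2 change gives its standard error. The script was tested on simulated data. A fold with 1 side below background on all arrays is a lower bound.

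Genes were named by rule: members called in a comparison (up to 12 in each direction), a set of lung P450 genes whatever their values, members next to the detection limit, and up to 4 called genes per list. The members, the comparisons and the pathway and marker lists were chosen with earlier results of these data known. No slide term could be fitted because no group spans both slides. Alternatives were scaling, background correction, filter, probe choice, the authors' table, the arrays in the fit, the replicate number as a block and leaving out each array.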

Additional observations from a re-analysis of the deposited data

Results flagged for a closer look

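Of 162 groups of 4 arrays over the P450 genes, 8 held an array whose gap to the nearest other, divided by the range of the group, was above Dixon's critical value for 4 samples. Chance gives about 5%. All values are log2 signal minus the array's 75th percentile.

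In PBS-treated 12-month ARF-DTR lungs, Cyp1a1 was at 3.69 in replicate 2, with -1.97 to -1.64 in the other samples. Cyp2c37 was at -3.01 in replicate 4 (others -3.88 to -3.84). Cyp3a57, near background, was at -4.83 in replicate 2 (others -5.51 to -5.44), and Cyp7b1 was at 0.17 in replicate 3 (others 0.33).

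In DT-treated ARF-DTR lungs, Cyp2d11 was at 1.42 in replicate 2 (others 1.04 to 1.09) and Cyp2j13 at -2.62 in the same replicate (others -2.3 to -2.24). Cyp2w1 was at -6.93 in replicate 4 (others -5.05 to -4.82), where it was not well above background. In 2-month lungs, Cyp21a1 was at -2.40 in replicate 1 (others -2.20 to -2.17).

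For 4 genes of the pathway lists the DT response of ARF-DTR lungs minus that of wild type lungs passed the threshold, and 0 of 54 P450 genes did by the probe used (limma, 7 at an unadjusted p under 0.05). The differences were 0.61 for Rarb, 0.58 for Dhrs3, -0.49 for Gstm5, a glutathione transferase, and -1.07 for Ch25h, which makes 25-hydroxycholesterol. Ch25h itself was higher with DT in wild type lungs (1.05 ± 0.17, adjusted p = 0.0368). The ARF-DTR side of these differences crosses slides.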

How the results depend on the processing

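Of 22 called P450 results, 6 kept their call under all alternatives run: Cyp3a57 with age, and Cyp39a1, Cyp7b1, Cyp4v3, Cyp4f16 and Cyp2d13 in DT-treated against PBS-treated ARF-DTR lungs. The other 16 lost it under at least 1, and of these 3 reversed in that comparison: Cyp2b10 (-0.063, quantile normalization), Cyp2b19 (0.23) and Cyp3a57 (0.071), both under normexp. The causes were not tested. No alternative separated slide from DT, so for the calls kept across slides these cannot be told apart. Against wild type PBS, within slide 2, none of the genes kept across slides was called. Cyp39a1 and Cyp2d13 had the opposite sign there, and Cyp7b1, Cyp4v3 and Cyp4f16 the same sign. For Cyp3a57 with age 8 other settings were run and not 9, because the filter on every array of a group dropped it. Its log2 change was 0.51 to 2.78 under these settings, and its 2-month values were all below background. For the difference in DT response, 1 member was called with the array median, 2 with normexp, 1 with the filter on every array of a group, 1 (lower) with the mean of kept probes and 1 with only the compared groups. ARF-DTR DT against wild type DT gave 9 without a filter (1 higher, 8 lower), where all 87 names were tested. ARF-DTR DT against wild type PBS gave 1 with the array median, 0 with only the compared groups and 1 (higher) with the replicate block.

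Leaving out single arrays gave 1 to 3 calls with age (4 with all arrays), fewest without 2-month replicate 4, and 2 without 2-month replicate 1 or 2 or any PBS sample. DT against PBS in ARF-DTR lungs gave 7 to 15 (7 without DT replicate 4, 9 without DT replicate 3 or PBS replicate 3), and in wild type lungs 0. The difference in DT response gave 0 to 2 (2 without ARF-DTR DT replicate 2). ARF-DTR DT against wild type DT gave 0 to 1 (1 without wild type DT replicate 1), and against wild type PBS 0 to 3 (0 without DT replicate 4 or wild type PBS replicate 1, 1 without DT replicate 3 or wild type PBS replicate 2). A lone wild type sample left in a group was assumed to vary like the other groups. With the replicate block the counts were 3 with age, 14 for DT in ARF-DTR, and 0 for DT in wild type, the difference in response and the genotypes with DT. Same-numbered samples correlated at -0.20 to 0.08 between PBS and 2-month lungs and -0.06 to 0.33 between DT and PBS in ARF-DTR lungs. Samples with different numbers correlated at -0.24 to 0.28 and -0.23 to 0.13. These ranges overlap, so whether the numbers pair the samples is not settled. Members above background on few arrays limit what can be seen.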

Other observations

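Several P450 genes had another kept probe that moved differently between DT-treated and PBS-treated ARF-DTR lungs, a comparison that crosses slides. The probe used for Cyp2j13, an epoxygenase, gave -0.26, and another, above background on 15 arrays, gave -1.03 (adjusted p over all probes 0.0011). That other probe also passed for the difference in DT response (-1.30, adjusted p over all probes 0.036), although by the probe used no P450 gene did, and it gave 0.40 against wild type PBS (0.262). For Cyp2u1 the probe used gave 0.06 and the other -0.41, and for Cyp3a13 they gave 0.20 and -0.26. For Cyp2a4 (-1.18 and -1.21) and Cyp20a1 (-0.07 and -0.03) the probes were close.

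Counts of other sterol genes in the same comparison stand beside 15.8% of all genes higher and 13.5% lower. With age these shares were 2.73% and 3.41%. Of 9 measured oxysterol and bile acid genes 3 were higher, the cholesterol exporters Abcg1 (0.58 ± 0.15) and Abca1 (0.45 ± 0.12) and the bile acid enzyme Hsd3b7 (0.24 ± 0.08). Against wild type PBS these had 0.53 ± 0.18, 0.31 ± 0.15 and 0.08 ± 0.10 (adjusted p 0.103 to 0.694). With age, Gpr183, a receptor for the oxysterol that Ch25h and Cyp7b1 make, was higher (0.47 ± 0.10, adjusted p = 0.0194). Cholesterol synthesis gave 1 higher of 21 with age, Pmvk (0.40 ± 0.10), and 2 higher across slides. Vitamin D and steroid genes gave 1 lower of 14 with age, Hsd11b1 (-0.24 ± 0.06), and 2 higher across slides. In the retinoid list, Aldh1a2, which makes retinoic acid, was higher with age (1.45 ± 0.21, adjusted p = 0.00152) and Crabp1, which binds it, was lower (-1.46 ± 0.30, adjusted p = 0.0136). Mesothelial markers, among whose cells Aldh1a2 is known, were higher with age for 4 of 6, with summed levels of 37.7 to 47.1 in PBS-treated and 23.8 to 37.3 in 2-month lungs, and their part was not tested.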
